A study of Mus musculus with 12 samples.

Results

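Neurofilaments, microtubules and growth cone proteins build the axons and dendrites of neurons, and the transcripts of 10 genes for them were examined in cultured mouse cortical cells with and without triiodothyronine (T3), the active thyroid hormone. The genes were chosen by name: the neurofilament chains Nefl, Nefm, Nefh and Ina, the microtubule genes Map2, Mapt and Tubb3, and the growth cone genes Gap43, Marcksl1 and Stmn2. All 10 were among the 14801 genes of the deposited table, and all 10 passed the filter on low values that left 13663 genes for testing. RNA was sequenced from 12 primary cultures of wild-type cerebrocortical cells, a mixture of neurons and glia from the cortex of fetuses taken on gestational day 17.5. The 6 cultures of the first group received 10 nM T3 for 24 h, and the 6 cultures of the second group were kept in parallel without T3. Each of 6 fetuses, called mouse 1 to 6 here, gave 1 culture to each group. Cells of both groups had grown for 9 days on laminin and had then spent 24 h without the B27 supplement before the T3 cultures received the hormone. The sources used here do not give the strain or sex of the fetuses.

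Neurofilaments are the intermediate filaments of neurons. The light chain, Nefl, forms the core, the medium and heavy chains, Nefm and Nefh, carry long tails that are phosphorylated in axons, and Ina (alpha-internexin) joins them in central neurons and appears earlier in development. Map2 binds microtubules mainly in dendrites and tau, the product of Mapt, mainly in axons, while Tubb3 is a neuron-specific beta-tubulin. Gap43 and Marcksl1 are membrane-bound substrates of protein kinase C found in growing neurites, and Stmn2 destabilizes microtubules in growth cones. T3 acts through nuclear receptors that bind DNA, and thyroid hormone is required for normal maturation of the fetal and neonatal brain.

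The 4 neurofilament chains are related genes, and the stretch in which their coding sequences are most alike shows how far reads can tell them apart. Over 30 bases near the start of the central rod, 25 bases were identical in all 4 chains. In the sequences below, taken from the GENCODE transcripts of the mouse build GRCm38 and written 5′ to 3′, capitals mark those shared bases.
Nefl: CAGCTGCAGGacCTcAACGAtCGCTTCGCc
Nefm: CAGCTGCAGGggCTgAACGAcCGCTTCGCc
Nefh: CAGCTGCAGGctCTgAACGAcCGCTTCGCg
Ina: CAGCTGCAGGgcCTcAACGAcCGCTTCGCc
Counted from the first base of the start codon, the stretch lies at bases 277 to 306 of Nefl, 304 to 333 of Nefm, 292 to 321 of Nefh and 289 to 318 of Ina, whose coding sequences are 1632, 2547, 3273 and 1506 bases long. Reads were 75 bases long. Nefh shared no run longer than 23 bases with any other cytoskeleton gene examined, Nefm, Prph and Vim each reaching that length, so that sequence likeness alone did not make a read fit both. Tubb3 shared at most 47 bases with Tubb6.

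Nefl (ENSMUSG00000022055) lies at chr14:68083863-68089095 on the plus strand and Nefm (ENSMUSG00000022054) at chr14:68082590-68124846 on the minus strand. The last exon of a long annotated Nefm transcript runs across 1108 exon bases of Nefl, 32.8% of the Nefl exons and 19.2% of those of Nefm. Strand is not marked by the library kit, and reads from that stretch cannot be told apart between Nefl and Nefm. Nefh (ENSMUSG00000020396) lies at chr11:4938754-4948064 on the minus strand and shares no exon base with another gene. Ina (ENSMUSG00000034336) lies at chr19:47014698-47025327 on the plus strand, and 14.1% of its exon bases overlap Nt5c2 on the other strand. The other members are Map2 (ENSMUSG00000015222) at chr1:66175273-66442583, Mapt (ENSMUSG00000018411) at chr11:104231390-104332090, Tubb3 (ENSMUSG00000062380) at chr8:123411424-123422015, Gap43 (ENSMUSG00000047261) at chr16:42248442-42340651, Marcksl1 (ENSMUSG00000047945) at chr4:129513581-129515985 and Stmn2 (ENSMUSG00000027500) at chr3:8509360-8561606. Among these 6 the only exon overlap was 0.754% of Map2.

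Libraries from T3 cultures held 9273960 ± 1421889 reads and those without T3 held 7008618 ± 951368 reads (SD, n = 6 each). The T3 library was deeper in 6 of 6 mice, by 1.03 to 1.67 times. Levels are given in CPM, a count of reads corrected by TMM for the size and make-up of its library, and every ± on a level is an SD over 6 cultures. The hormone's known target Hr, a nuclear corepressor, averaged 46.5 ± 2.92 CPM with T3 and 5.49 ± 1.23 CPM without T3, and the groups did not overlap. Klf9, a transcription factor induced by T3, averaged 65.4 ± 6.60 CPM with T3 and 23.7 ± 4.71 CPM without T3. The neuronal label was checked on 19 pan-neuronal marker genes, whose summed level was 8195 to 10475 CPM with T3 and 8994 to 10241 CPM without T3. In bulk RNA, fewer cells of a type and less RNA per cell cannot be told apart. One culture without T3, that of mouse 4, held heart muscle and collagen transcripts. Of 12 listed heart and striated muscle genes, 4 had values here. The cardiac genes Actc1, Tnnt2, Tnni3, Myl2, Myl7, Nppa, Pln and Tnnc1 did not. Sums over the 4 were 62.7 to 80.6 CPM in T3 cultures and 55.7 to 1295 CPM in cultures without T3, the highest being that culture. The collagen genes Col1a1, Col1a2 and Col3a1 were also highest there, at 62.2, 66.4 and 110.6 CPM. Their medians without T3 were 2.77, 6.89 and 2.91 CPM.

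Transcripts of the light and medium neurofilament chains rose with T3, Nefl by 25.2% and Nefm by 39.7%, while the heavy chain, Ina and the microtubule and growth cone genes did not pass the test. Of the 10 members, 2 passed at an adjusted p under 0.05, both higher with T3. Over all 13663 genes tested, 5.52% passed in either direction, 3.37% higher and 2.14% lower. The median log2 change over all genes was 0.0031 and the median size of a change, regardless of sign, was 0.08. A rise as large as that of Nefl or larger was met in 3.70% of all genes, a share that leaves out falls of that size.

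Nefm, the medium chain, gave the largest change among the members. Its level with T3 was 57.9 CPM at the lowest, 67.1 CPM at the median and 81.5 CPM at the highest, against 42.3, 46.7 and 57.0 CPM without T3. Every T3 culture lay above every culture without T3, although the lowest T3 culture and the highest culture without T3 were less than 1 CPM apart. Groups that did not overlap, with T3 higher, were found in 1.05% of all genes tested, and in either direction in 1.68%. Nefm was the only member whose groups did not overlap. Nefm averaged 68.0 ± 8.54 CPM with T3 and 48.4 ± 5.35 CPM without T3. The log2 change was 0.48 (SE 0.074, adjusted p = 0.000268 by limma), or 1.40-fold with a 95% confidence interval of 1.26 to 1.56. Nefm was higher with T3 in 6 of 6 mice, by 0.23 to 0.94 on the log2 scale. The 0.94 came from mouse 4, whose library without T3 held the heart and collagen transcripts and also had the lowest Nefm level. Without mouse 4 the log2 change of Nefm was 0.39 (adjusted p = 0.00150). From 228 to 757 reads stood behind each Nefm value.

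Nefl, the light chain that forms the filament core, also rose. With T3 its level was 82.0 CPM at the lowest, 117.9 CPM at the median and 131.9 CPM at the highest, against 74.5, 91.0 and 97.6 CPM without T3. The groups overlapped, because mouse 6 was low in both, with 82.0 CPM with T3 and 74.5 CPM without it. The mean was 113.4 ± 19.4 CPM with T3 and 89.7 ± 8.81 CPM without T3. The log2 change was 0.32 (SE 0.063, adjusted p = 0.00291 by limma), or 1.25-fold with a 95% confidence interval of 1.14 to 1.37. Nefl was higher with T3 in 6 of 6 mice, but the size of the change differed between mice. It was 0.53 in mouse 1, 0.49 in mouse 3 and 0.41 in mouse 2, and only 0.14 in mouse 6 and 0.05 in mouse 5. The call ended in 3 of 19 alternative analyses. Scaled to the 19 pan-neuronal genes, the log2 change of Nefl was 0.29 (adjusted p = 0.0780 by limma), while Nefm stayed past the threshold at 0.45 (adjusted p = 0.00293).

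Being higher in 6 of 6 mice was met in 5.79% of all genes tested and in 2 of the 10 members, Nefl and Nefm. The 2 genes share a stretch of exon, as described above, and which of them the reads there belong to was not tested. Mouse by mouse, their log2 changes ran alike in some and apart in others. Nefl and Nefm changed by 0.53 and 0.49 in mouse 1, and by 0.49 and 0.48 in mouse 3. In mouse 2 the changes were 0.41 and 0.23, and in mouse 6 they were 0.14 and 0.33. They differed most in mouse 4, at 0.33 and 0.94, and mouse 5, at 0.05 and 0.42.

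Nefh, the heavy chain, which is the last of the chains to accumulate as axons mature, had a point estimate of similar size that did not pass the test. It stood at 6.82 CPM at the lowest, 8.14 CPM at the median and 11.2 CPM at the highest with T3, against 4.45, 6.31 and 8.89 CPM without T3. The groups overlapped over much of their range, and each value rested on 31 to 101 reads. The mean was 8.49 ± 1.57 CPM with T3 and 6.33 ± 1.61 CPM without T3. The log2 change was 0.41 (SE 0.137, adjusted p = 0.0903 by limma), with a 95% confidence interval of 0.13 to 0.70. Nefh was higher with T3 in 5 of 6 mice and lower in mouse 3, with a range of -0.16 to 0.97. With all libraries thinned to 5272092 reads, the log2 changes were 0.33 for Nefl (adjusted p = 0.00215), 0.52 for Nefm (adjusted p = 8.31e-05) and 0.52 for Nefh (adjusted p = 0.0547).

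Ina, the chain that central neurons make early, did not follow the light and medium chains. It ranged from 313.7 to 448.1 CPM with T3, with a median of 381.7 CPM, and from 313.8 to 453.8 CPM without T3, with a median of 363.8 CPM. The groups spanned nearly the same range, and Ina was higher with T3 in 3 of 6 mice. Its log2 change was 0.03 with a 95% confidence interval of -0.07 to 0.12 (adjusted p = 0.830 by limma), on 1892 to 4531 reads per library. The interval reaches up to a rise of 8.78% at most, below the lower bounds for Nefm, 25.5%, and for Nefl, 14.2%. A test of the difference between Ina and the other chains was not made.

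**Figure D1:**
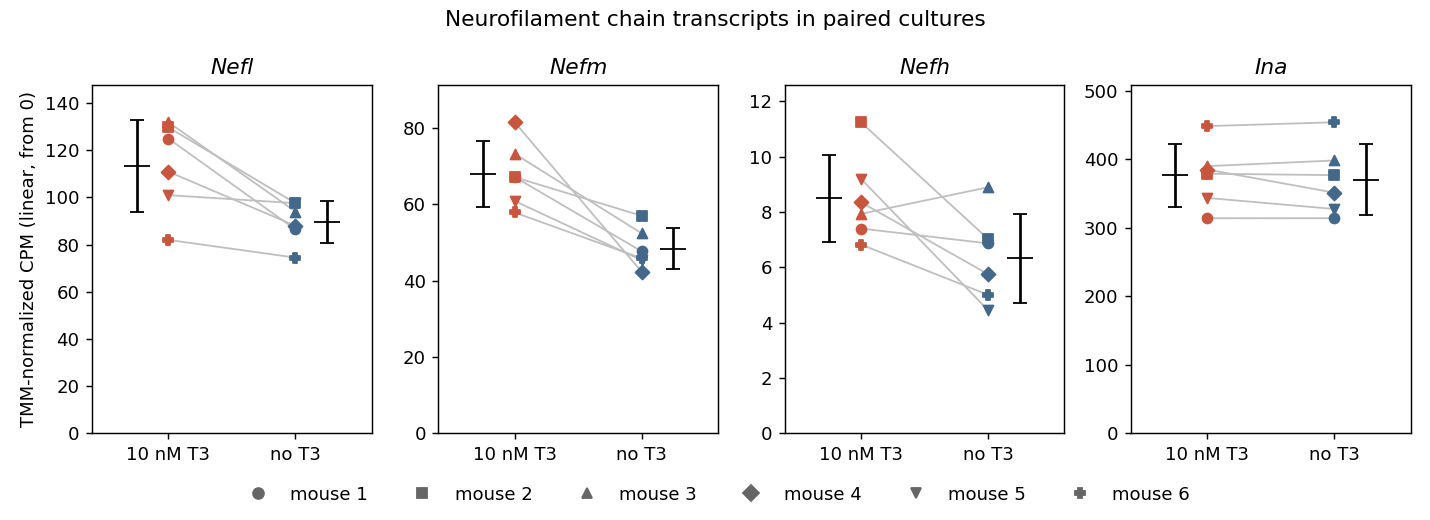
Levels of Nefl, Nefm, Nefh and Ina as TMM-normalized CPM on a linear axis from 0, with 10 nM T3 on the left and no T3 on the right of each panel. Grey lines join the cultures of 1 mouse, symbols mark mice 1 to 6, and the black marks beside them are means with SD (n = 6). Nefl and Nefm are higher with T3 in 6 of 6 mice, Nefh in 5 and Ina in 3.

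The microtubule genes gave no call. Map2, the dendritic microtubule-associated protein, was 2193 CPM at the lowest, 2298 CPM at the median and 2613 CPM at the highest with T3, against 2203, 2510 and 3090 CPM without T3. The T3 range lay within the lower part of the range without T3 except for its lowest culture. The log2 change was -0.11 (95% confidence interval -0.21 to -0.01, adjusted p = 0.200 by limma), with lower values with T3 in 5 of 6 mice. Mapt, the tau gene, averaged 2235 ± 242 CPM with T3 and 2246 ± 275 CPM without T3, a log2 change of -0.0061 with an interval of -0.10 to 0.09 (adjusted p = 0.972). It was higher in 3 mice and lower in 3, and its sign turned when mouse 1, 2 or 6 was left out.

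Tubb3, the neuronal beta-tubulin, varied most between cultures of all the microtubule and growth cone genes. With T3 it was 810.8 CPM at the lowest, 1225 CPM at the median and 1542 CPM at the highest, against 1085, 1236 and 1673 CPM without T3. The ranges overlapped, with mouse 1 lowest and mouse 6 highest in each group. The log2 change was -0.06 (95% confidence interval -0.20 to 0.07, adjusted p = 0.699 by limma). It was -0.42 in mouse 1 and 0.15 in mouse 3, and without mouse 1 the mean change was 0.0098.

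The growth cone genes stayed close to their levels without T3. Gap43 averaged 1099 ± 108 CPM with T3 and 1114 ± 102 CPM without T3, and its log2 change of -0.02 had a 95% confidence interval of -0.12 to 0.08 (adjusted p = 0.885 by limma). Stmn2 averaged 2115 ± 141 CPM with T3 and 2202 ± 168 CPM without T3, with a change of -0.06 (interval -0.15 to 0.04, adjusted p = 0.598). Marcksl1 averaged 741.3 ± 99.6 CPM with T3 and 760.9 ± 76.5 CPM without T3, with a change of -0.04 (interval -0.15 to 0.06, adjusted p = 0.738). All 3 pairs of groups overlapped, and each gene had some mice on either side of 0. In percent, the intervals of these genes allowed at most a rise of 5.72%, for Gap43, and at most a decrease of 10.1%, for Stmn2. These values rested on 3803 to 23080 reads per library.

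**Figure D2:**
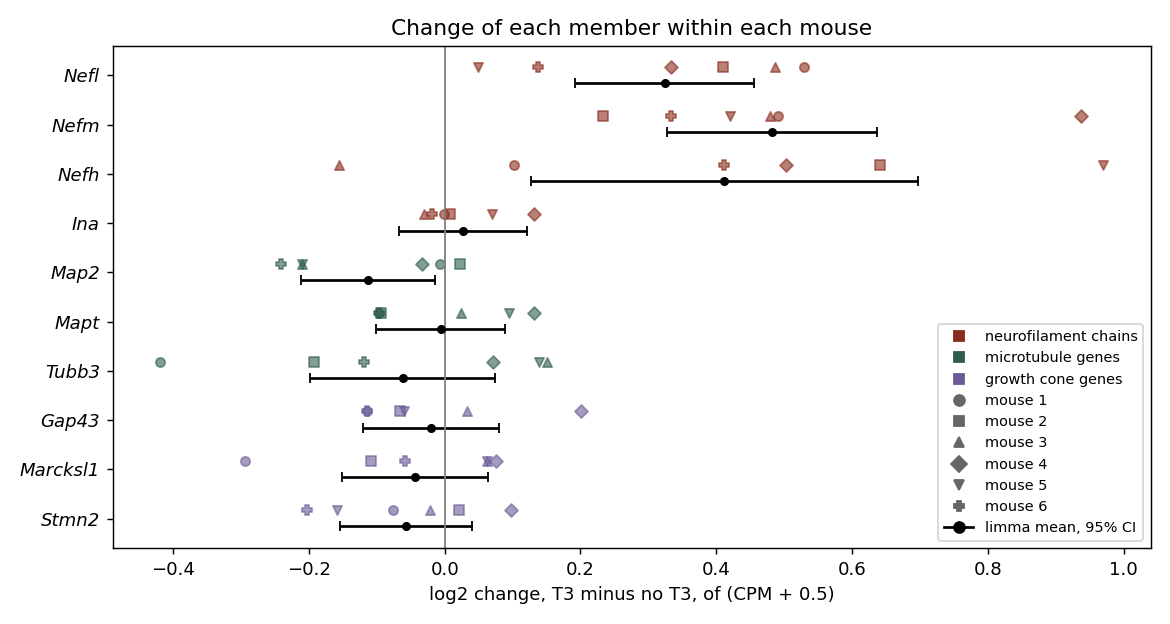
Change of each of the 10 genes within each mouse, as log2 of (CPM + 0.5) with T3 minus without T3. Coloured symbols are the 6 mice and the black point with its bar is the limma mean with its 95% confidence interval. The intervals of Nefl, Nefm and Nefh lie above 0, that of Map2 below 0, and the other 6 include 0.

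Set against each other within each mouse, the mean change of the chains was above that of the other 6 members, with Nefl and Nefm the only members that passed the test. The mean log2 change of the 4 chains was 0.31 ± 0.11 (SD over 6 mice), with a range of 0.19 to 0.48. The mean of the 3 microtubule genes was -0.06 ± 0.09, and that of the 3 growth cone genes was -0.04 ± 0.10. The difference was above 0 in 6 of 6 mice, at 0.36 ± 0.09, from 0.19 in mouse 3 to 0.45 in mouse 1. These sums are descriptions without a test, since the genes were picked by name with earlier results known, and the chain mean includes Nefh and Ina, which did not pass the test. The microtubule and growth cone genes did not all move together by mouse. Map2 changed by -0.0064 in mouse 1 and -0.21 in mouse 3, where Tubb3 changed by -0.42 and 0.15. The mean of those 6 genes was lowest in mouse 1, at -0.17, and mouse 6, at -0.14. It was highest in mouse 4, at 0.09. Because the difference is taken within a library, no scaling of the libraries can change it by more than the pseudocount allows, and it was 0.36 after scaling to pan-neuronal genes.

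Per length of exon, the members kept the same order of mean levels with and without T3. Gap43 stood highest, with 721.6 ± 70.7 CPM per kb with T3 and 731.4 ± 66.8 CPM per kb without T3. Tubb3 followed with 655.5 ± 136 and 678.3 ± 117 CPM per kb with and without T3, and Marcksl1 with 461.8 ± 62.1 and 474.1 ± 47.7 CPM per kb. These growth cone and tubulin genes were followed by Stmn2, Mapt and Map2, with 377.6, 296.7 and 143.0 CPM per kb with T3 and 393.0, 298.2 and 155.2 CPM per kb without T3. The ranges over cultures overlapped in both groups between Gap43 and Tubb3, between Stmn2 and Mapt and between Map2 and Ina, and between Tubb3 and Marcksl1 and Marcksl1 and Stmn2 with T3 only. Within a library the order was firmer: Gap43 was above Tubb3 in 10 of 12 libraries, and every other member was above the next in 12 of 12.

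The chains came last. Ina had 116.2 ± 14.1 CPM per kb with T3 and 114.2 ± 15.9 CPM per kb without T3, and Nefl 33.6 ± 5.75 and 26.5 ± 2.61 CPM per kb with and without T3. Nefm had 11.8 ± 1.48 CPM per kb with T3 and 8.37 ± 0.93 CPM per kb without T3, and Nefh 2.13 ± 0.39 and 1.59 ± 0.40 CPM per kb with and without T3. Ina, Nefl, Nefm and Nefh did not overlap with each other in either group. This order held under 3 definitions of length, whereas that of the upper members did not: divided by its longest transcript, Map2 without T3 was at 407.9 CPM per kb and Stmn2 at 645.0 CPM per kb.

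As a share of the summed per-length level of the 4 chains, Ina made up 70.9% ± 4.59 with T3 and 75.6% ± 3.29 without T3 (SD, n = 6 each), lower with T3 in 6 of 6 mice. The Nefm share was 7.21% ± 0.92 with T3 and 5.58% ± 0.64 without T3, higher in 6 of 6 mice. Nefl made up 20.6% ± 3.84 with T3 and 17.8% ± 2.70 without T3, higher in 5 mice, and Nefh 1.31% ± 0.25 and 1.06% ± 0.26 with and without T3, higher in 4. With either other length the same numbers of mice moved the same way. Because the shares of the 4 chains in a culture add up to a fixed whole, these shifts restate the changes in level above. They are no separate result about Ina. Ina remained the main chain transcript in both groups.

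**Figure D3:**
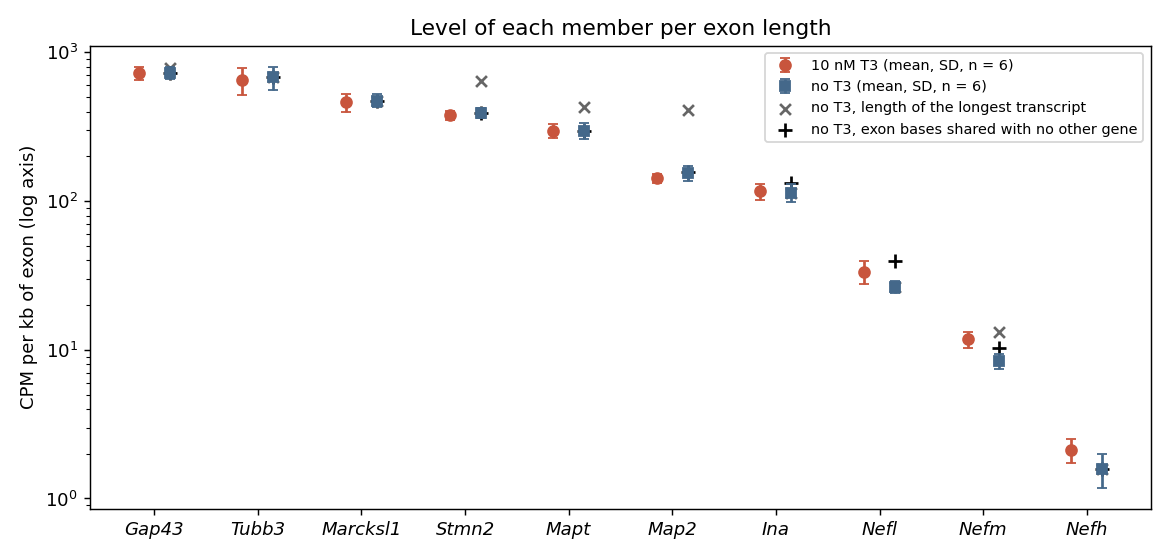
Level of each gene as CPM per kb of exon on a log axis, ordered by the mean without T3, with 10 nM T3 left of no T3 for each gene (mean with SD, n = 6). Crosses give the mean without T3 under 2 other definitions of length. The chains fall from Ina at over 100 to Nefh at about 2, and the T3 and no T3 points of Gap43, Tubb3, Marcksl1, Stmn2, Mapt and Ina lie side by side.

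Among 177 further tested genes of 11 cytoskeleton lists, 6 rose and 3 fell with T3. That is 5.08%, against 5.52% of all genes tested, with a median log2 change of -0.03 and a median size of 0.06. Of these genes, 3 changed by at least as much as Nefl in either direction, whether or not they passed the test. The share of all genes with a change of that size in either direction was not taken, so this count is a description. The lists are described in turn below, each by its counts and its median beside the median of 0.0031 over all genes.

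Among 11 tested relatives of the chains, other intermediate filaments and their linkers, 1 rose and none fell, with a median of 0.06. The 1 that rose was Gfap, the filament of astrocytes, at 306.1 ± 178 CPM with T3 and 264.9 ± 182 CPM without T3 (log2 change 0.30, adjusted p = 0.0336 by limma). Its level differed widely between mice, and its groups overlapped, but it was higher with T3 in 6 of 6. Prph (peripherin), the neurofilament relative of peripheral neurons, averaged 2.95 ± 0.96 CPM with T3 and 3.57 ± 0.39 CPM without T3 (log2 change -0.28, adjusted p = 0.409). Among 16 genes for neurofilament turnover and kinases, 1 fell and none rose, with a median of -0.05. Mapk10 (JNK3), a neuronal stress kinase that phosphorylates neurofilament tails, was 212.2 ± 12.7 CPM with T3 and 245.5 ± 18.7 CPM without T3 (log2 change -0.21, adjusted p = 0.0117), with no overlap between the groups.

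Of 14 other tubulins, 1 rose and none fell, with a median of -0.01. Tuba4a, an alpha-tubulin of mature neurons, was at 124.9 ± 13.0 CPM with T3 and 108.2 ± 12.7 CPM without T3 (log2 change 0.21, adjusted p = 0.0220 by limma), and 37.3% of its exon bases overlap Stk16 on the other strand. None of 20 other microtubule-associated proteins passed, with a median of -0.0031, and the smallest p was that of Map6d1 at 0.24 (adjusted p = 0.159). None of 16 genes for microtubule ends and severing passed, with a median of -0.04, and Mapre2, an end-binding protein, came nearest at -0.14 (adjusted p = 0.0677). None of 15 tubulin-modifying enzymes passed, with a median of -0.03, and Sirt2, a deacetylase of tubulin, had the smallest p at 0.15 (adjusted p = 0.191).

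The relatives of the growth cone genes gave no rise. None of 9 other stathmins, MARCKS and Gap43 relatives passed, with a median of -0.06. Marcks, the larger relative of Marcksl1, stood at 698.8 ± 27.9 CPM with T3 and 787.7 ± 86.8 CPM without T3, lower with T3 in 6 of 6 mice (log2 change -0.17, adjusted p = 0.0609 by limma). Of 5 collapsin response mediators, which link guidance signals to microtubules, 1 fell and none rose, with a median of -0.05. The one that fell was Dpysl2 (CRMP2), at 425.0 ± 37.4 CPM with T3 and 490.2 ± 44.0 CPM without T3 (log2 change -0.21, adjusted p = 0.00647). Of 29 actin regulators of the growth cone, 1 rose and none fell, with a median of -0.03, and that gene was Evl, of the Ena/VASP family, with a log2 change of 0.20 (adjusted p = 0.0479). Of 26 motor genes of axonal transport, 1 rose and none fell, with a median of -0.03, and that gene was the kinesin Kif1c, with a log2 change of 0.27 (adjusted p = 0.0450).

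Of the 11 further cytoskeleton lists, that of the axon initial segment and spectrin skeleton gave the most calls, in both directions. Of its 16 tested genes 2 rose and 1 fell, with a median of -0.02. Cntnap1, an adhesion protein of the paranode where myelin meets the axon, was 1.98 CPM at the lowest, 3.73 CPM at the median and 4.01 CPM at the highest with T3, against 0.77, 1.66 and 2.96 CPM without T3. The groups overlapped, Cntnap1 was higher with T3 in 6 of 6 mice, and its log2 change of 0.84 (SE 0.168, adjusted p = 0.00385 by limma) rested on 6 to 42 reads per library. Nfasc (neurofascin), which anchors adhesion complexes at the initial segment and node, was at 159.3 CPM or more in every T3 culture and at 157.3 CPM or less in every culture without T3. Its means were 167.7 ± 7.04 CPM with T3 and 143.4 ± 16.1 CPM without T3 (log2 change 0.23, adjusted p = 0.0134). Epb41l3, a membrane skeleton linker of the paranode, fell by 0.19 on the log2 scale (adjusted p = 0.0375).

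Of these 9 calls outside the members, 7 were lost when a single mouse was left out. Of the 9, 3 still passed without mouse 5, 3 without mouse 6, 4 without mouse 3 and 5 without mouse 4. Gfap and Kif1c missed the threshold without mouse 3, 5 or 6, with adjusted p up to 0.121 and 0.193. Tuba4a and Epb41l3 missed it without mouse 3, 4, 5 or 6, with adjusted p up to 0.0994 and 0.217, and Evl without any of mice 2 to 6, with adjusted p up to 0.196. Nfasc missed it without mouse 4 or 5, up to 0.0657, and Mapk10 without mouse 6, at 0.0527. Dpysl2 and Cntnap1 passed whichever mouse was left out. Cntnap1 missed the threshold without the replicate block, with all libraries thinned to equal depth and with DESeq2. It was not tested under the stricter filter on low values, because it stayed below 5 CPM in every library.

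**Figure D4:**
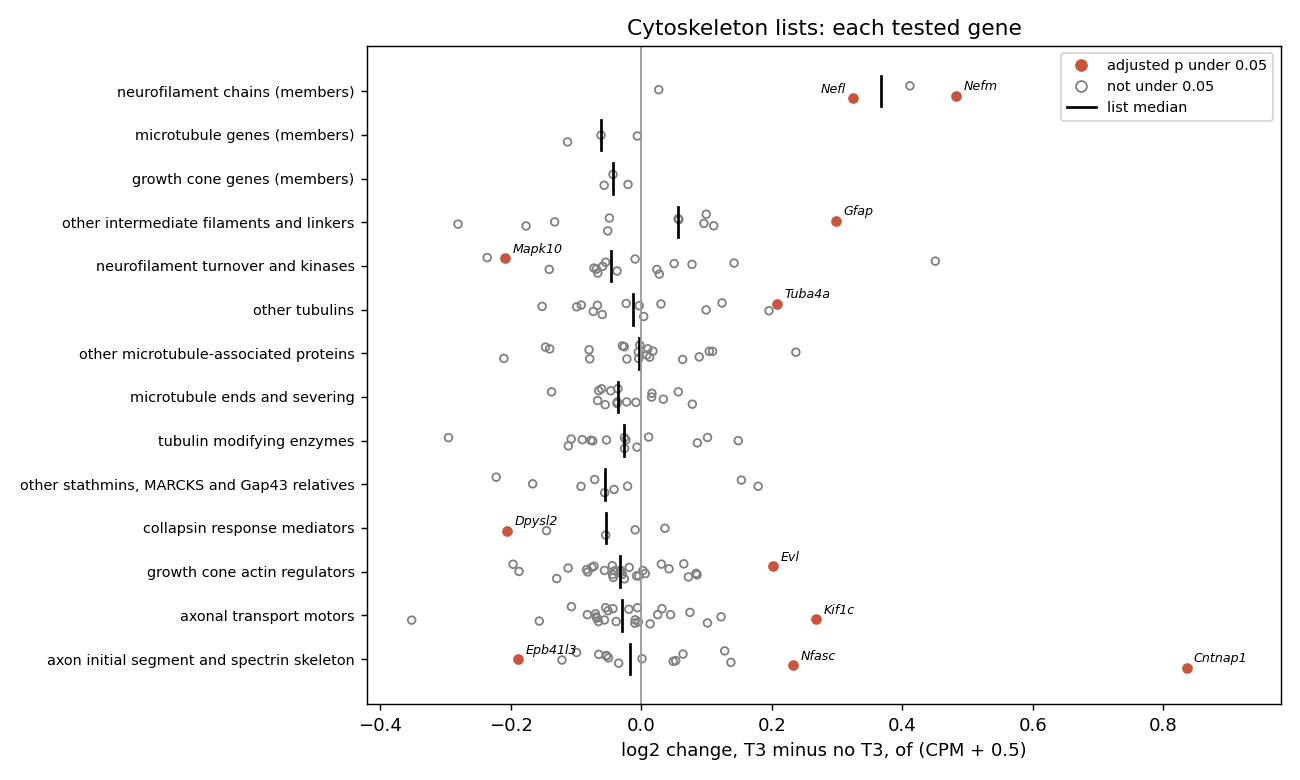
Each tested gene of the member groups and the 11 further cytoskeleton lists by its log2 change with T3 minus without T3, of CPM + 0.5. Filled points passed an adjusted p of 0.05, open points did not, and black bars are list medians. Outside the members, only Cntnap1 and 1 gene that did not pass lie to the right of Nefl.

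The genes whose levels followed the mean of the 4 chains most closely over the 12 libraries were neuronal signalling and adhesion genes. Likeness was measured as the root mean square distance between log2 levels, each centred on its own mean. Over 13377 genes the median distance was 0.26, and a gene with the same level in every library would lie at 0.20. The nearest was Cacna1a, a presynaptic calcium channel subunit, at a distance of 0.07, followed by the adhesion protein gene Ntm at 0.08, the GABA-B receptor subunit gene Gabbr2 at 0.08, the kinase gene Camk1d at 0.09 and Faah, an endocannabinoid hydrolase, at 0.10. Each was higher with T3 in 6 of 6 mice, with log2 changes of 0.38, 0.21, 0.33, 0.27 and 0.24. The chain pattern contains the T3 difference, so genes that change with T3 are favoured by this measure.

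Markers of other cells moved with T3 as well. Of 13 tested astrocyte markers 7 rose and none fell, with a median log2 change of 0.29 and summed levels of 1903 to 4475 CPM with T3 and 1333 to 3797 CPM without T3, higher in 6 of 6 mice. Of 11 oligodendrocyte lineage markers 4 rose and none fell, with sums of 481.3 to 609.3 CPM with T3 and 370.6 to 540.3 CPM without T3. Among 19 tested pan-neuronal markers 2 rose and none fell, with a median of 0.00097, and these were Rbfox3, the neuronal splicing factor NeuN, at 0.27 (adjusted p = 0.0101 by limma) and Chga at 0.26 (adjusted p = 0.0295). None of 5 tested immature neuron markers passed, with a median of -0.06 and sums of 1334 to 1707 CPM with T3 and 1363 to 2202 CPM without T3. Of the 8 markers of peripheral neurons, which are rich in Nefl, Nefm and Nefh, only Prph and Tac1 were in the table, with sums of 13.1 to 23.1 CPM with T3 and 14.7 to 22.0 CPM without T3. The part of any of these cell types in the changes of Nefl and Nefm was not tested.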

How the data were processed

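Per the file headers, the authors deposited a signal: reads per gene, scaled by TMM. Per the submitters' processing notes the tools were CASAVA, FastQC, TopHat, Bowtie, HTSeq and edgeR, with the build GRCm38. Tool versions and the strand setting of the counting were not given in the sources used here. Per the labels' protocols, libraries came from 500 ng of total RNA, with single reads of 75 bases. All 14801 listed genes reach 1 CPM in at least 2 libraries. Dividing by the value of 1 read gave whole reads for 100% of values (tolerance 0.01 reads), in totals of 5272092 to 10837895 per library. Libraries of 1 group always differed by more than sampling noise (chi-square per degree of freedom 2.41 to 18.1).

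Limma 3.58.1 (R 4.3.3) was fitted to log2(value + 0.5) over all 13663 genes kept by filterByExpr of edgeR 4.0.16, with the mouse as a block, a mean-variance trend and robust estimation. Fold changes on this scale understate changes of low genes. P-values are two-sided, adjusted over all genes by Benjamini-Hochberg, with a threshold of 0.05, and come from this fit unless another tool is named. The pairing comes from the series' design, by which 1 fetus supplied both cultures. Deviations of own pairs correlated at 0.237 to 0.638, and 12 of 12 libraries matched their own mouse best. Alternatives used edgeR, DESeq2 1.42.0 and voom on recovered reads, other scalings, filters and pseudocounts, thinning, and leaving out each mouse.

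Levels per length are CPM divided by the union of exons in kb (GENCODE M21), or by the longest transcript. Another length, without exon bases shared with another gene, was chosen after seeing the data. Symbols were found for 14648 identifiers. The members and lists were chosen with earlier results of these data known. Named genes are all members, Hr and Klf9, every called gene of a list or else the one with the smallest p, and the 5 genes nearest in pattern to the chains. Rbfox3, Chga, Prph, Tac1, Col1a1, Col1a2 and Col3a1, from the marker lists, were named after their values were seen.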

Additional observations from a re-analysis of the deposited data

Results flagged for a closer look

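In 50 groups of 6 cultures, those of the 10 genes and of 15 other named genes, 2 groups held a culture far from the other 5 by Dixon's criterion for 6 values, and chance alone marks about 1 in 20 groups. Tubb3 stood at 1673 CPM in the culture of mouse 6 without T3, and the next highest was 1285 CPM, a gap of 0.659 of the range. Cntnap1 stood at 1.98 CPM in the T3 culture of mouse 6, and the next lowest was 3.48 CPM, a gap of 0.742 of the range.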

How the results depend on the processing

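Nefm passed in 19 of 19 alternatives, with log2 changes of 0.39 to 0.53, Nefl in 16 of 19, with 0.28 to 0.38, and Nefh in 0 of 19, with 0.30 to 0.53 and adjusted p of 0.0530 to 0.363. Without the replicate block, which ignores that cultures are paired by mouse, 178 genes passed in place of 754, with 1 of the members (Nefl at adjusted p = 0.222, Nefm at 0.00847) and 0 of the list genes. Limma without trend and robust estimation called 337 genes, 1 member (Nefl at 0.0791) and 1 list gene. Scaling to pan-neuronal genes called 464 genes, 1 member and 4 list genes, and turned Ina to -0.0065 (adjusted p = 0.976). The cause was not tested. With 1 mouse left out, 458 to 860 genes passed, 458 of them without mouse 3, and Nefl and Nefm passed throughout, with 3 to 13 list genes. With 1 mouse left out, Mapt ran from -0.033 to 0.012, above 0 without mouse 1, 2 or 6, Tubb3 from -0.10 to 0.0098 and Marcksl1 from -0.067 to 0.0066, both above 0 without mouse 1. DESeq2 called 522 genes and edgeR 706. The mean change of the chains minus that of the other 6 members was 0.34 to 0.41 in 12 alternatives. With the longest transcript as length, levels without T3 were 645.0 CPM per kb for Stmn2, 427.5 for Mapt, 407.9 for Map2 and 13.2 for Nefm. Without shared exon bases they were 132.9 for Ina, 39.5 for Nefl and 10.4 for Nefm, a shift set by the shorter lengths. Counts were low for Nefh, with 31 reads or more in a library, and for Cntnap1, with 6 or more.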
